A study of Mus musculus with 19 samples.

Results

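The transcripts described here are those of 31 genes of sterol and fatty acid synthesis, measured in each of 19 libraries of mouse CD8 T cells. They were chosen by name from a list of the pathway, with earlier results of these data known. Shares of members set beside shares of all genes therefore describe the members and are no independent test. The members are 31 of the 53656 genes in the count tables, and all 31 were found. Of these, 7 encode enzymes from acetoacetyl-CoA to farnesyl diphosphate, 11 encode enzymes from squalene to cholesterol, 5 encode regulators of sterol synthesis, 6 encode enzymes of fatty acid synthesis and desaturation, and 2 encode sterol efflux transporters. RNA was sequenced from C57BL/6 mouse CD8 T cells with a transgenic receptor, SV40-I, which recognises SV40 large T antigen, or OT-I, which recognises ovalbumin. Naive SV40-I cells were sorted as CD44low (3 libraries). SV40-I cells from malignant liver lesions were sorted at days 8 to 9 by the congenic mark Thy1.1 and by high or low surface PD1, LAG3 and CD39, giving the early marker-high and early marker-low groups (3 libraries each). At days 20 to 21, Thy1.1 SV40-I and Ly5.1 OT-I cells came from such lesions (late SV40-I and late OT-I, 3 libraries each). Cultured cells were naive SV40-I cells activated with antibodies to CD3 and CD28, given a retrovirus with GFP alone or with TOX and GFP, grown in IL-2 and sorted for GFP (2 libraries each). TOX is a DNA-binding nuclear protein linked to T cell exhaustion.

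Several points limit these groups as models. The titles name liver lesions whereas the source field names splenocytes for all 19 libraries, so the tissue sampled is uncertain. Column names in the files contain WT where the label says marker-high and KO where it says marker-low, yet no label states a genotype; gate and genotype cannot be told apart there. The late groups differ in receptor and congenic mark as well as in antigen. The labels do not say that replicates came from separate mice or cultures, so p-values measure only the spread between these libraries, which may be technical. In bulk RNA, fewer cells of a type and less RNA per cell cannot be told apart.

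Cholesterol is built from acetyl units through mevalonate, farnesyl diphosphate, squalene and lanosterol. When membrane sterol is low, Scap escorts the SREBP transcription factors out of the endoplasmic reticulum, and their released fragments switch on the enzymes of the pathway; when sterol is high, Insig proteins hold Scap back, and oxysterols switch on the efflux transporters Abca1 and Abcg1 through the LXR receptors. T cells are known to raise sterol and fatty acid synthesis and to lower LXR targets when they begin to divide, because new membrane is needed.

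The promoters of 5 members are shown because these genes, an early enzyme, an isomerase, the feedback protein, a sterol oxidase and the regulator itself, stand at different points of the pathway and recur in the results. RefSeq windows of 250 bases before to 50 after a start site (GRCm38.p6) matched 25 of the 31 members by symbol, with 33 windows in all; Fdps, Fdft1, Sqle, Scd1, Scd2 and Abcg1 were not matched. The 250 bases before the start are printed 5′ to 3′ along the gene. Capitals mark the NF-Y box CCAAT on either strand, which reads ATTGG on the other, and in Hmgcs1 also the sterol regulatory element core TCACNCCAC. The regions are chr13:119690101-119690350 on the plus strand for Hmgcs1, chr13:8885356-8885605 (plus) for Idi1, chr5:28071162-28071411 (plus) for Insig1, chr8:64733579-64733828 (minus) for Msmo1 and chr15:82147019-82147268 (plus) for Srebf2.
Hmgcs1: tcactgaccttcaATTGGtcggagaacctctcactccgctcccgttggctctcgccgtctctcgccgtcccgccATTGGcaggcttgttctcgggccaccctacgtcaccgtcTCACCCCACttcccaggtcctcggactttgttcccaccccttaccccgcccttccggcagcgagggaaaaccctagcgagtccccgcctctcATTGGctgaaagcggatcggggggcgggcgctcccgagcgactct
Idi1: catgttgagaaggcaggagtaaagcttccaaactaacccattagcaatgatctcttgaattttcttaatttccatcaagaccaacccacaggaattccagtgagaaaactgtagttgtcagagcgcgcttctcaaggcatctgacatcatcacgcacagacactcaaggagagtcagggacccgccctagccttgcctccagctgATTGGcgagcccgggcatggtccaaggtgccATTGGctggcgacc
Insig1: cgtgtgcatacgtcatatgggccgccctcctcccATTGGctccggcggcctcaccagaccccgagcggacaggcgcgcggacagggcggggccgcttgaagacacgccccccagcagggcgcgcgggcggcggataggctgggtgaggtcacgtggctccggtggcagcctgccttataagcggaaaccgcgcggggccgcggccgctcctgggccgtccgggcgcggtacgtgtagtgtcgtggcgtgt
Msmo1: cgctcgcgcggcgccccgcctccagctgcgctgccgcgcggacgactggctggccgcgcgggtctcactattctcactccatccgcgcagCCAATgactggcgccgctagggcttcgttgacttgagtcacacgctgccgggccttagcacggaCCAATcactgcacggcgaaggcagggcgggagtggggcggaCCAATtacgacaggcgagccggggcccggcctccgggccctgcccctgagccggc
Srebf2: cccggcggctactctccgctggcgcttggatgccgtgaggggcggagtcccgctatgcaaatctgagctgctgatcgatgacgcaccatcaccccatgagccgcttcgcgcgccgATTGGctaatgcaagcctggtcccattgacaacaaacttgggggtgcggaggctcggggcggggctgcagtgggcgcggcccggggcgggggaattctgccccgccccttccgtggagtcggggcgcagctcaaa
The Hmgcs1 stretch holds the core as TCACCCCAC, beginning 137 bases before the start, and 3 NF-Y boxes. There are 2 NF-Y boxes in the Idi1 stretch, 3 in that of Msmo1 and 1 each in those of Insig1 and Srebf2. Over the whole 300-base windows, 20 of 25 members (80%) held an NF-Y box, against 41.1% of all 27025 genes with a window and 42.8% of genes tested in the ex vivo comparisons. The GC box GGGCGG, searched on both strands, was in 21 of 25 members (84%), against 38.2% of all genes and 65.9% of those tested. The sterol regulatory element core was in 1 of 25 (4%, Hmgcs1), against 1.44% of all genes. Only exact matches were counted, so a stretch with a changed letter, such as tcaccccat in the Srebf2 promoter, was not. The SREBP E-box ATCACGTGA and the LXR direct repeat (searched by name, on both strands) were in 0 of 25, against 0.374% and 0.0148% of all genes. In the 5 promoters shown, none of the motifs overlapped another. A match describes letters in a window and no binding was measured.

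Library totals ran from 37006508 to 54195918 counts, and 0 counts in a library allow up to 3 counts, or 0.0554 to 0.0811 CPM, for counting error only. Levels are CPM, which are counts scaled to the library total. Tox stood at 90.3 to 130.0 CPM in naive, 359 to 731 in early marker-high, 48.9 to 125 in early marker-low, 666 to 949 in late SV40-I and 18.4 to 31.1 in late OT-I libraries. With TOX-GFP it stood at 118 and 156 CPM and with GFP alone at 13.8 and 21.4, so it followed the labels in culture, where vector reads may be included. All 5 CD8 T cell markers (Cd8a, Cd8b1, Cd3e, Cd3d and Trac) were found in every group. Of 12 hepatocyte markers, the sum exceeded 1000 CPM in 3 libraries, late SV40-I library 2 (1428) and late OT-I libraries 2 and 3 (1040 and 1906), and was at most 622 elsewhere. In the early libraries Hp, which neutrophils also express, made up most of that sum. The sum of 10 macrophage markers was 3991 to 5775 CPM in early marker-high, 1942, 8641 and 730 in early marker-low libraries 1 to 3, and at most 7.35 in culture.

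Across the 19 libraries, the members fell into genes held within a narrow range and genes that varied widely. Among group means, Insig2 differed 1.40-fold, Acly 1.43-fold and Nsdhl 1.45-fold between the highest and the lowest group. Insig1 differed 77.0-fold, Elovl6 64.2-fold, Sqle 60.1-fold, Idi1 47.2-fold and Hmgcs1 36.4-fold. The lowest group of Insig1, Elovl6 and Idi1 was late OT-I, whose libraries held 8 to 45, 6 to 68 and 12 to 20 counts of them in turn. The group means of Abca1 differed 76.6-fold, a ratio that rests on 0 and 10 counts in the lowest group, TOX-GFP. The TOX-GFP group had the highest mean for 16 of 31 members. Within the 5 ex vivo groups, naive cells had the highest mean for 15 of 31 and the lowest for Acly and Scd1. The share of all genes with their highest mean in each group was not counted. These CPM also leave out the TMM scaling used in the tests, with factors of 1.19 to 1.24 in cultured and 0.9 to 1.05 in ex vivo libraries.

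Per kilobase of annotated exon, naive cells had most transcript of Acly at 109 CPM per kb, Srebf2 at 88.0 and Ebp at 67.3. The length covers all annotated exon bases of a gene, 17074 for Acaca, and not the transcripts made in these cells. Genes therefore compare only roughly. Acly makes cytosolic acetyl-CoA from citrate, and Ebp is a sterol isomerase. The least was that of Acaca, which makes malonyl-CoA, at 0.222, and of the isopentenyl diphosphate isomerase Idi1 at 0.346. In TOX-GFP cells, the stearoyl-CoA desaturase Scd2 led at 138 CPM per kb, ahead of Acly at 121 and the lanosterol demethylase Cyp51 at 79.4.

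**Figure D1:**
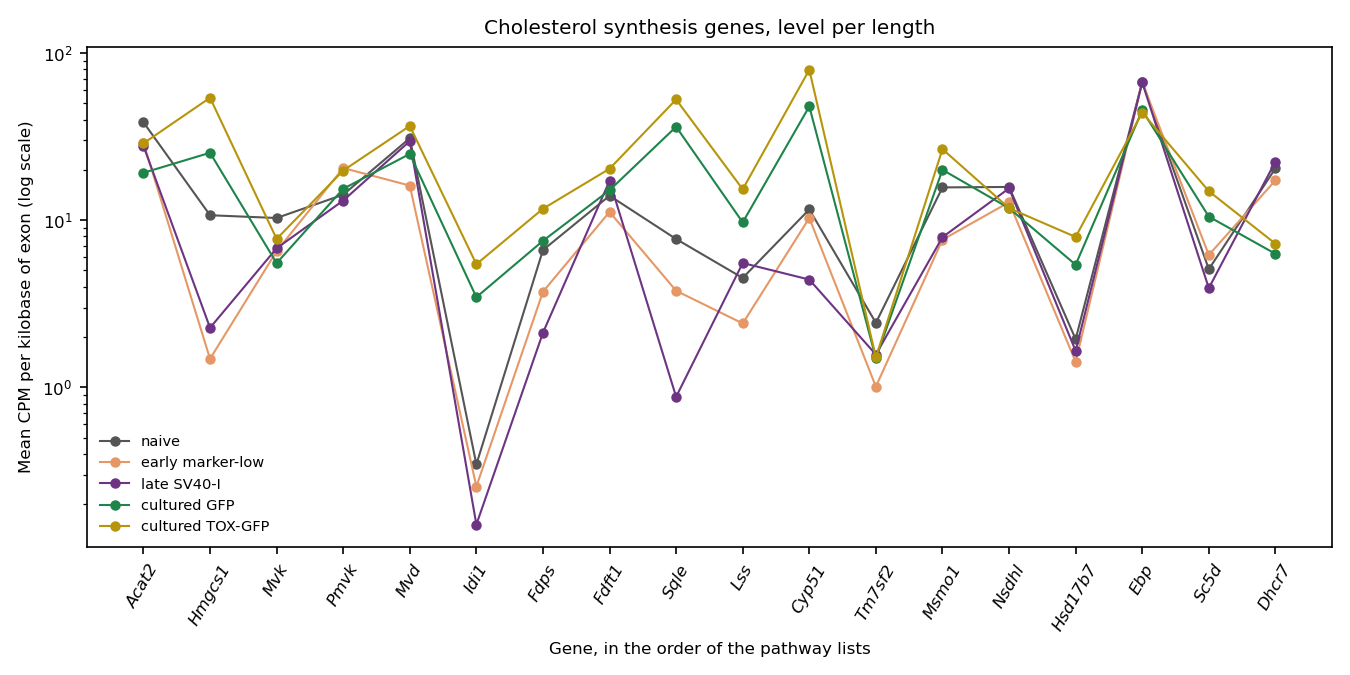
Mean CPM per kilobase of annotated exon (log axis) of the 18 enzymes of cholesterol synthesis, in pathway order, in naive, early marker-low, late SV40-I and both cultured groups. The cultured groups stand above the others at Hmgcs1, Idi1, Sqle and Cyp51, and below naive cells at Ebp and Dhcr7.

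The first question was how the members differ between naive T cells and T cells labelled as from liver lesions. The latter, all CD8 T cells, are called tumour cells, groups or libraries below. In early marker-high cells 7 of 31 fell and 0 rose; over all 16404 genes tested, 9.1% were called lower, 14.3% higher and 23.4% in either direction. In early marker-low cells 6 fell and 0 rose, against 6.21% lower, 10.6% higher and 16.8% either way over all genes. In late SV40-I cells 5 fell and 0 rose, against 6.86% lower, 11.1% higher and 18% either way. In late OT-I cells 6 fell and 1 rose, against 2.29% lower, 5.06% higher and 7.35% either way. A call is an adjusted p under 0.05 in edgeR's quasi-likelihood test with Benjamini-Hochberg adjustment over all genes tested. The median log2 fold change of the members was -0.44, -0.39, -0.36 and -0.41 in these comparisons in turn, against 0.06, 0.09, 0.05 and 0.04 over all genes. Leaving out single libraries moved 3 of these counts by over 1.5 times: the marker-high count was 5 without marker-high library 3 and 2 to 4 without any other library, and the late OT-I count was 3 or 4 without any 1 library. The marker-low count was 1 without marker-low library 1 or 3 or naive library 3, 3 without naive library 1, 4 without naive library 2 and 7 without marker-low library 2. The late SV40-I count was 4 or 5. Over all genes, these fits called 13.8% to 20.5% in marker-high and 8.06% to 12.5% in marker-low cells. They called 11.9% to 13.5% in late SV40-I and 4.46% to 4.96% in late OT-I cells. With the hepatocyte sum as a covariate the 4 counts were 3, 0, 4 and 2 in turn, against 12.1%, 9.17%, 12% and 3.07% of all genes. That sum was at most 10.2 CPM in naive and at least 39.8 CPM in tumour libraries. The covariate and the comparison with naive cells therefore cannot be told apart, here or for single genes below. The 4 comparisons share the same 3 naive libraries, so their values stand side by side and are not independent.

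**Figure D2:**
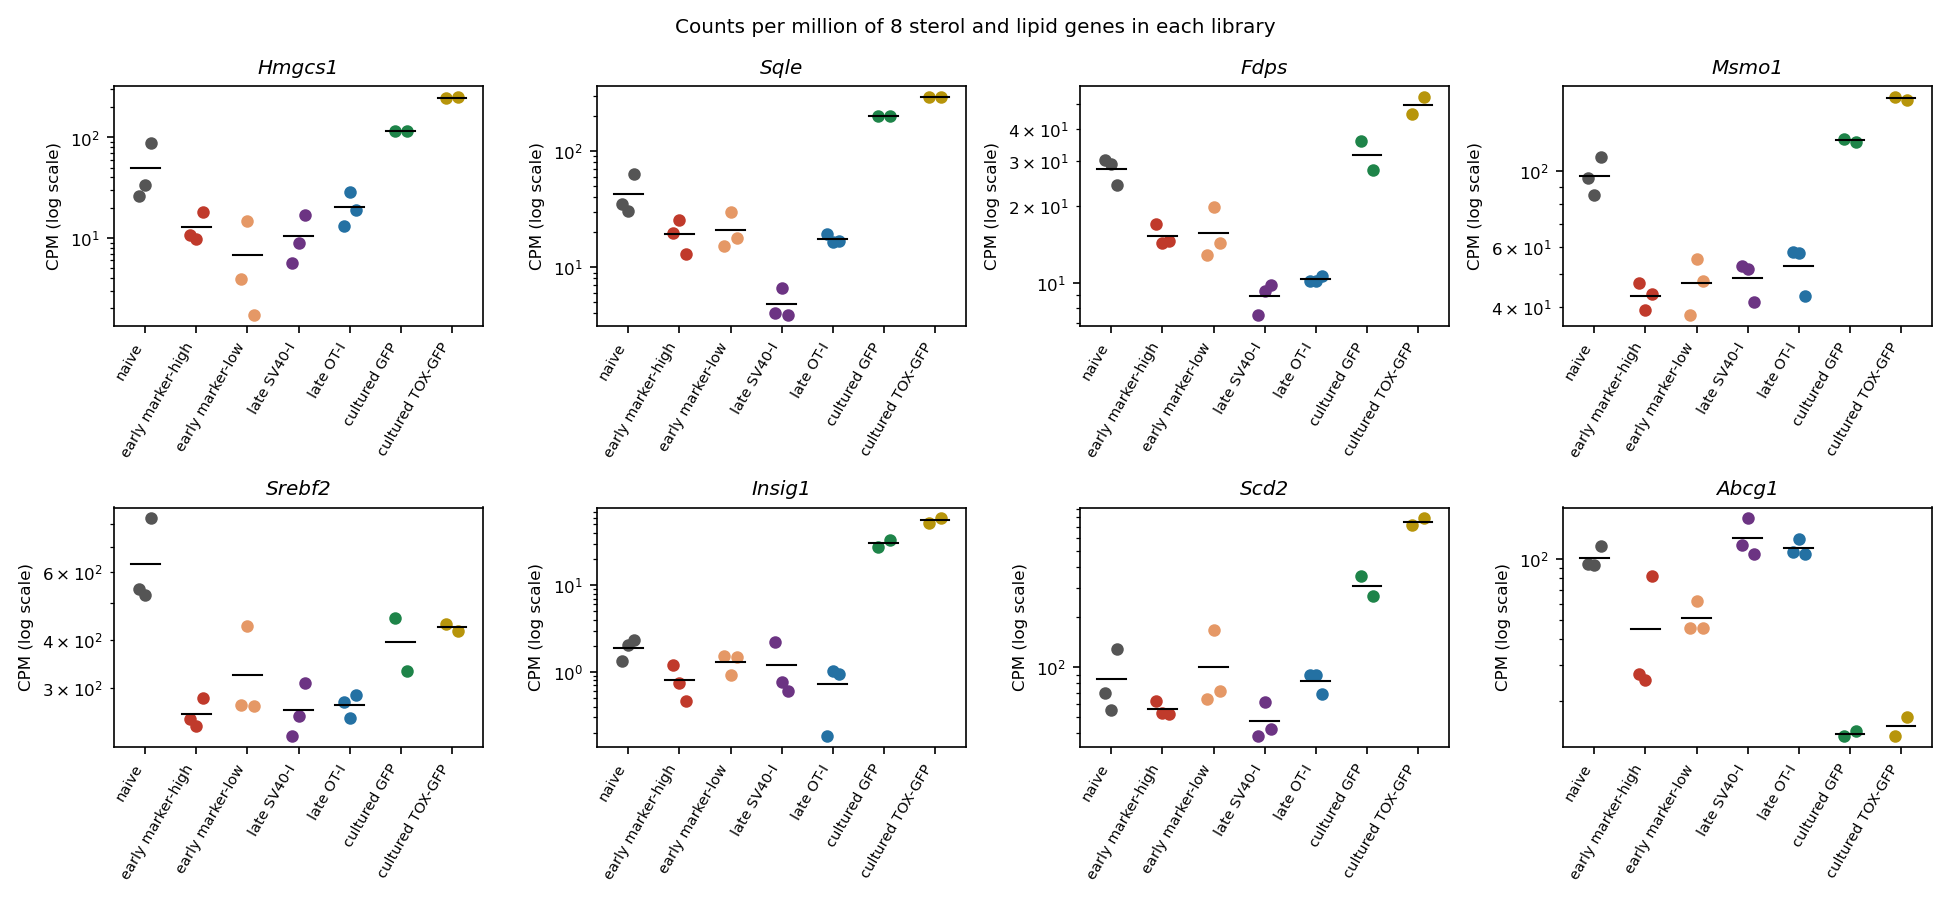
CPM (log axes) of 8 members in each library; points are libraries and bars are group means, with 3 libraries in each ex vivo group and 2 in each cultured group. Srebf2, Msmo1 and Fdps are lower in all 12 tumour libraries than in all 3 naive ones, and Hmgcs1, Sqle, Insig1 and Scd2 are highest in the TOX-GFP libraries.

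Of the 7 mevalonate enzymes, farnesyl diphosphate synthase, Fdps (chromosome 3, 89093588 to 89101959, minus strand), fell in all 4 comparisons. It stood at 30.3, 29.1 and 24.2 CPM in naive libraries, at 17, 14.3 and 14.6 in the marker-high group and at 12.9, 19.8 and 14.4 in the marker-low group. Late SV40-I libraries held 7.53, 9.34 and 9.89 CPM and late OT-I libraries 10.2, 10.2 and 10.7. All tumour libraries lay below all naive ones, with the late groups lowest. The log2 fold changes against naive were -0.84 ± 0.24 in marker-high (standard error, adjusted p = 0.023, edgeR), -0.77 ± 0.24 in marker-low (0.0409), -1.57 ± 0.24 in late SV40-I (0.000606) and -1.40 ± 0.24 in late OT-I cells (0.00257). The early calls were lost without marker-high library 2 or 3 or naive library 1 or 2 in the former, and without marker-low library 1 or 3 or any 1 naive library in the latter. The late OT-I call was lost without the 3 libraries rich in hepatocyte RNA, which leaves 1 OT-I library. Some 26.7% of Fdps exon bases are shared with an antisense locus, and counting did not use strand.

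Hmgcs1 (chromosome 13, 119690379 to 119708260), which encodes the cytosolic HMG-CoA synthase whose promoter is printed above, varied widely within groups. Naive libraries held 26.1, 33.5 and 88.1 CPM, early marker-high 10.8, 9.88 and 18.3, and early marker-low 3.91, 14.8 and 1.72. In late SV40-I libraries it stood at 5.63, 8.86 and 16.8 CPM and in late OT-I libraries at 13.3, 28.5 and 18.9. Naive library 3 was far above the other two, and only the late OT-I range reached into the naive one. Hmgcs1 fell in marker-low cells, with a log2 fold change of -2.79 ± 0.74 (adjusted p = 0.0221, edgeR), and that call was lost without naive library 3 or marker-low library 1 or 3. In the other groups its log2 fold change was -1.88 ± 0.71 (marker-high, adjusted p = 0.0722), -2.15 ± 0.72 (late SV40-I, 0.0551) and -1.28 ± 0.70 (late OT-I, 0.328). Marker-low library 2, the highest of its group, also had the highest macrophage sum, 8641 CPM. Its CD8 marker sum was the lowest of the group, 7194 CPM against 13610 and 12910. The part of these cells in the value was not tested. Of the exon bases of Hmgcs1, 12.1% are shared with an antisense locus, and counting did not use strand. The same holds for 9.22% of those of Idi1 and 13.2% of those of Scap.

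Mvk (chromosome 5, 114444269 to 114460591), the mevalonate kinase, fell in late OT-I cells. It stood at 24.0, 29.7 and 29.0 CPM in naive, 6.02, 9.59 and 9.76 in late OT-I and 13.2, 19.7 and 21.6 in late SV40-I libraries. The OT-I libraries lay below all libraries of the other two groups, with a log2 fold change against naive of -1.70 ± 0.26 (adjusted p = 0.00116, edgeR), and the call held in each of 15 alternative analyses. In early cells Mvk ranged from 13.9 to 20.5 CPM and was not called. The isomerase gene Idi1, with low levels ex vivo, stood at 1.26, 1.16 and 1.22 CPM in naive, 1.24, 2.12 and 0.592 in the marker-high group and 0.549, 1.84 and 0.290 in the marker-low group. It stood at 0.918, 0.443 and 0.227 CPM in late SV40-I and 0.272, 0.540 and 0.404 in late OT-I libraries. The late libraries were all below the naive ones, the early ones overlapped them, and no ex vivo comparison called it. Over the 19 libraries, the thiolase Acat2 ranged from 45.8 to 113 CPM, the kinase Pmvk from 14.3 to 67.9 and the decarboxylase Mvd from 19.4 to 71.2, and none of the 3 was called in an ex vivo comparison; reads of Acat2 may be shared with its near-identical copy Acat3.

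Of the 11 enzymes from squalene onward, the C4 sterol oxidase gene Msmo1 (chromosome 8, 64718139 to 64733792, minus strand) fell in all 4 comparisons. It stood at 95.3, 84.9 and 110.0 CPM in naive, 46.8, 39.0 and 43.5 in the marker-high group and 37.8, 55.3 and 47.7 in the marker-low group. The late SV40-I values were 52.7, 51.6 and 41.4 CPM and the late OT-I values 57.7, 57.5 and 43.0. No tumour library reached a naive one, and the tumour groups overlapped each other. The log2 fold changes were -1.13, -0.99, -0.91 and -0.85 (each ± 0.19; adjusted p = 0.00122, 0.00464, 0.00543 and 0.0159, edgeR), in the order marker-high, marker-low, late SV40-I and late OT-I. With the macrophage sum as a covariate the early log2 fold changes were -1.06 and -0.93 and the calls were lost (adjusted p = 0.0739 and 0.0835), and the late OT-I call was lost without OT-I library 2 or 3 or naive library 1 or 3, and without the 3 libraries rich in hepatocyte RNA (0.484). With the hepatocyte sum as a covariate the marker-low, late SV40-I and late OT-I calls were lost. Their log2 fold changes were then -0.90, -0.83 and -0.75 (adjusted p = 0.065, 0.0691 and 0.261, edgeR), while the marker-high call held (0.0328). Like the hepatocyte sum, the macrophage sum was lower in naive libraries (102 to 263 CPM) than in any early library. It cannot be told apart from the comparison of early with naive cells, here or for other genes.

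Sqle (chromosome 15, 59315077 to 59331192), which encodes squalene epoxidase, a rate-controlling enzyme, was lowest in late SV40-I cells. Naive libraries held 35.0, 30.3 and 62.9 CPM, early marker-high 19.8, 25.4 and 13.1, and early marker-low 15.1, 30.1 and 17.8. Late SV40-I libraries held 4.07, 6.64 and 3.88 CPM and late OT-I libraries 19.3, 16.4 and 16.9. The late SV40-I range lay below those of all other groups. Against naive, Sqle fell by 3.06 ± 0.39 on the log2 scale in late SV40-I (adjusted p = 0.000152, edgeR) and by 1.102 ± 0.363 in early marker-high cells (0.0439); the late call held in each of 15 alternatives, and the early one was lost on removing any library of its groups except naive library 2. In marker-low and late OT-I cells the log2 fold change was -0.97 ± 0.36 (adjusted p = 0.085) and -1.25 ± 0.36 (0.0565).

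Of the sterol enzymes other than Msmo1 and Sqle, Tm7sf2 was called in 3 of the 4 comparisons and the rest in 1 or 0. Tm7sf2, a sterol reductase, fell in early marker-high, early marker-low and late OT-I cells, with log2 fold changes of -1.13 ± 0.36, -1.22 ± 0.36 and -1.46 ± 0.36 (adjusted p = 0.0377, 0.035 and 0.0268, edgeR). The 2 early calls were each lost on removing any 1 library and the late one without any except OT-I library 3, and 47.2% of the exon bases counted for it are shared with Vps51 and another locus. Lanosterol synthase, Lss, fell in marker-low cells by 0.85 ± 0.23 (adjusted p = 0.0236), Cyp51 in late SV40-I cells by 1.32 ± 0.39 (0.0337), and squalene synthase, Fdft1, in late OT-I cells by 0.62 ± 0.16 (0.0268). The Lss call was lost without marker-low library 1 or 3 or naive library 1 or 3 and with the macrophage covariate (0.368), the Cyp51 call without any library except SV40-I library 3, and the Fdft1 call without any except naive library 1. Of the exon bases of Fdft1, 18.3% are shared with the opposite-strand gene Ctsb. The desaturase Sc5d was the one member that rose from naive to a tumour group, in late OT-I cells, by 1.03 ± 0.26 (adjusted p = 0.0313), a call lost on removing any 1 library of the comparison. Nsdhl and Hsd17b7, which act with Msmo1 in removing methyl groups from lanosterol, ranged from 28.5 to 50.3 and from 4.40 to 42.0 CPM over the 19 libraries. Ebp ranged from 99.1 to 207 CPM and Dhcr7 from 28.9 to 159, and none of these 4 was called ex vivo.

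Among the regulators, Srebf2 (chromosome 15, 82147181 to 82205379), which encodes SREBP2, the main activator of cholesterol genes, fell in all 4 comparisons. It stood at 544, 523 and 828 CPM in naive, 250, 240 and 283 in the marker-high group and 272, 435 and 270 in the marker-low group. In late SV40-I libraries it stood at 225, 255 and 309 CPM and in late OT-I libraries at 276, 251 and 288. All tumour libraries lay below all naive ones, and naive library 3 and marker-low library 2 were each the highest of their group. The log2 fold changes were -1.26 ± 0.23 (marker-high, adjusted p = 0.00167, edgeR), -0.90 ± 0.22 (marker-low, 0.017), -1.18 ± 0.22 (late SV40-I, 0.00273) and -1.19 ± 0.22 (late OT-I, 0.00537). The marker-high and late SV40-I calls held in each of 15 alternatives; the marker-low call was lost without naive library 3 or marker-low library 1 or 3, with the hepatocyte sum as a covariate (0.0969) and in a fit of the 2 groups alone (0.0609), and the late OT-I call with the hepatocyte sum as a covariate or without the 3 libraries rich in hepatocyte RNA.

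Srebf1, which encodes the SREBP1 forms that act mainly on fatty acid genes, was not called. It stood at 189, 198 and 270 CPM in naive, 135, 121 and 145 in the marker-high group and 156, 241 and 165 in the marker-low group. The late SV40-I values were 195, 154 and 133 CPM and the late OT-I values 204, 205 and 112. Only the marker-high range lay apart from the naive one, with a log2 fold change of -0.68 ± 0.25 (adjusted p = 0.0678, edgeR). Insig1, which encodes the sterol-regulated brake on Scap, was low, at 1.34, 2.04 and 2.36 CPM in naive, 1.21, 0.742 and 0.464 in the marker-high group and 1.53, 0.920 and 1.47 in the marker-low group. Late SV40-I libraries held 2.21, 0.775 and 0.599 CPM and late OT-I libraries 0.181, 1.03 and 0.957, and no comparison among ex vivo groups called it. Scap, the escort protein, ranged from 29.2 to 112 CPM and Insig2, a second retention protein, from 22.5 to 54.8 CPM over the 19 libraries, and neither was called in any comparison.

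Of the 6 fatty acid genes, only the elongase Elovl6 was called, lower in early marker-high cells, with a log2 fold change of -2.89 ± 0.90 (0.827 ± 0.563 against 6.32 ± 0.947 CPM, SD, n = 3 each; adjusted p = 0.035, edgeR). Its log2 fold change in the other tumour groups was -2.52 ± 0.89 (marker-low), -2.06 ± 0.87 (late SV40-I) and -3.03 ± 0.91 (late OT-I), and the call was lost on removing any library of the comparison except marker-high library 3. Fatty acid synthase, Fasn, stood at 237, 150 and 314 CPM in naive, 167, 177 and 135 in the marker-high group and 205, 276 and 202 in the marker-low group. In late SV40-I libraries it stood at 145, 259 and 162 CPM and in late OT-I libraries at 144, 133 and 238. All 4 tumour groups overlapped the naive one for Fasn. Scd2 stood at 69.5, 54.9 and 129 CPM in naive, 62.4, 52.6 and 51.9 in the marker-high group and 64.0, 166 and 71.2 in the marker-low group. The late SV40-I values were 38.1, 61.4 and 42.1 CPM and the late OT-I values 89.9, 89.6 and 68.5. The high Scd2 value of marker-low library 2 again came with its macrophage sum of 8641 CPM.

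Acly ranged from 409 to 885 CPM and Acaca from 0.282 to 10.2 over the 19 libraries, and neither was called in any comparison. Scd1, a liver-abundant desaturase with close homologues, stood at 4.17, 3.26 and 4.85 CPM in naive, 3.93, 5.63 and 8.11 in the marker-high group and 5.97, 4.26 and 3.19 in the marker-low group. Late SV40-I libraries held 0.0235, 18.0 and 3.80 CPM and late OT-I libraries 4.34, 10.8 and 28.8. The 0.0235 CPM of late SV40-I library 1 was 1 count, under the 3 counts that a count of 0 allows. The 3 values above 10 CPM ex vivo were in the 3 libraries whose hepatocyte sum exceeded 1000 CPM, and the other late libraries held at most 4.34; the part of hepatocyte RNA in them was not tested. No ex vivo comparison called Scd1.

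**Figure D3:**
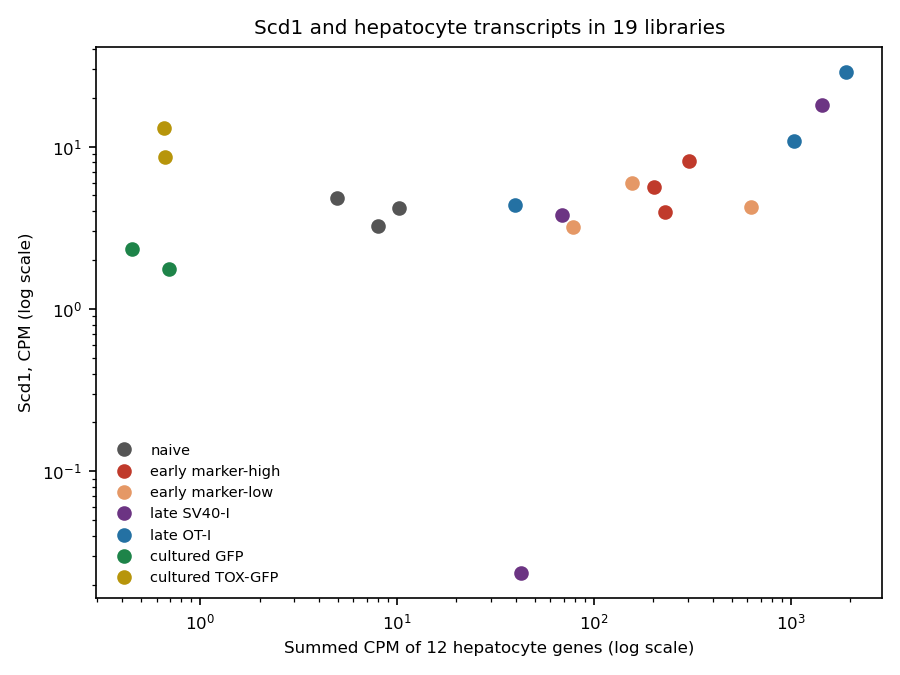
Scd1 CPM against the summed CPM of 12 hepatocyte markers in 19 libraries, both on log axes and coloured by group. The 3 libraries beyond 1000 hepatocyte CPM hold 10.8 to 28.8 CPM of Scd1, and the TOX-GFP libraries hold 8.61 and 13.1 CPM with under 1 CPM of hepatocyte markers.

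Of the 2 efflux transporters, Abcg1 was called in 1 of these 4 comparisons and Abca1 in 0. Abcg1 (chromosome 17, 31057698 to 31115777) stood at 94.6, 92.9 and 115 CPM in naive, 27.0, 25.3 and 82.2 in the marker-high group and 45.5, 62.1 and 45.5 in the marker-low group. In late SV40-I libraries it stood at 117, 158 and 105 CPM and in late OT-I libraries at 108, 125 and 106. The early groups lay below the naive one and the late groups overlapped it. In marker-high cells Abcg1 fell, with a log2 fold change of -1.14 ± 0.37 (adjusted p = 0.0415, edgeR), a call lost on removing any library except marker-high library 3, the one at 82.2 CPM; in marker-low cells the log2 fold change was -0.93 ± 0.37 (adjusted p = 0.101). Abca1 stood at 6.67, 6.81 and 10.0 CPM in naive, 2.47, 1.23 and 3.06 in the marker-high group and 1.15, 5.65 and 0 in the marker-low group. The late SV40-I values were 0.400, 2.38 and 0.557 CPM and the late OT-I values 4.66, 10.1 and 7.80. Early and late SV40-I libraries were all below naive and late OT-I overlapped it, and with standard errors above 1 on the log2 scale no ex vivo comparison called Abca1.

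By non-overlap of CPM, all libraries of the tumour group lay below all naive ones for 13, 13, 13 and 14 of 31 members in marker-high, marker-low, late SV40-I and late OT-I cells. Over all genes tested this held for 20.8%, 18.3%, 19.5% and 13.1%. The opposite order held for 2, 0, 1 and 1 members, against 24.6%, 18.6%, 18.6% and 15.3% of genes. Of the calls against naive cells, those held in each of 15 alternatives were Srebf2 in marker-high cells, Fdps, Sqle and Srebf2 in late SV40-I cells and Mvk in late OT-I cells, with 0 in marker-low cells. Alongside these differences, the sum of 16 cell cycle genes was 677.9 to 975.6 CPM in naive, 3394 to 7830 in early and 743.5 to 1197 in late tumour libraries.

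**Figure D4:**
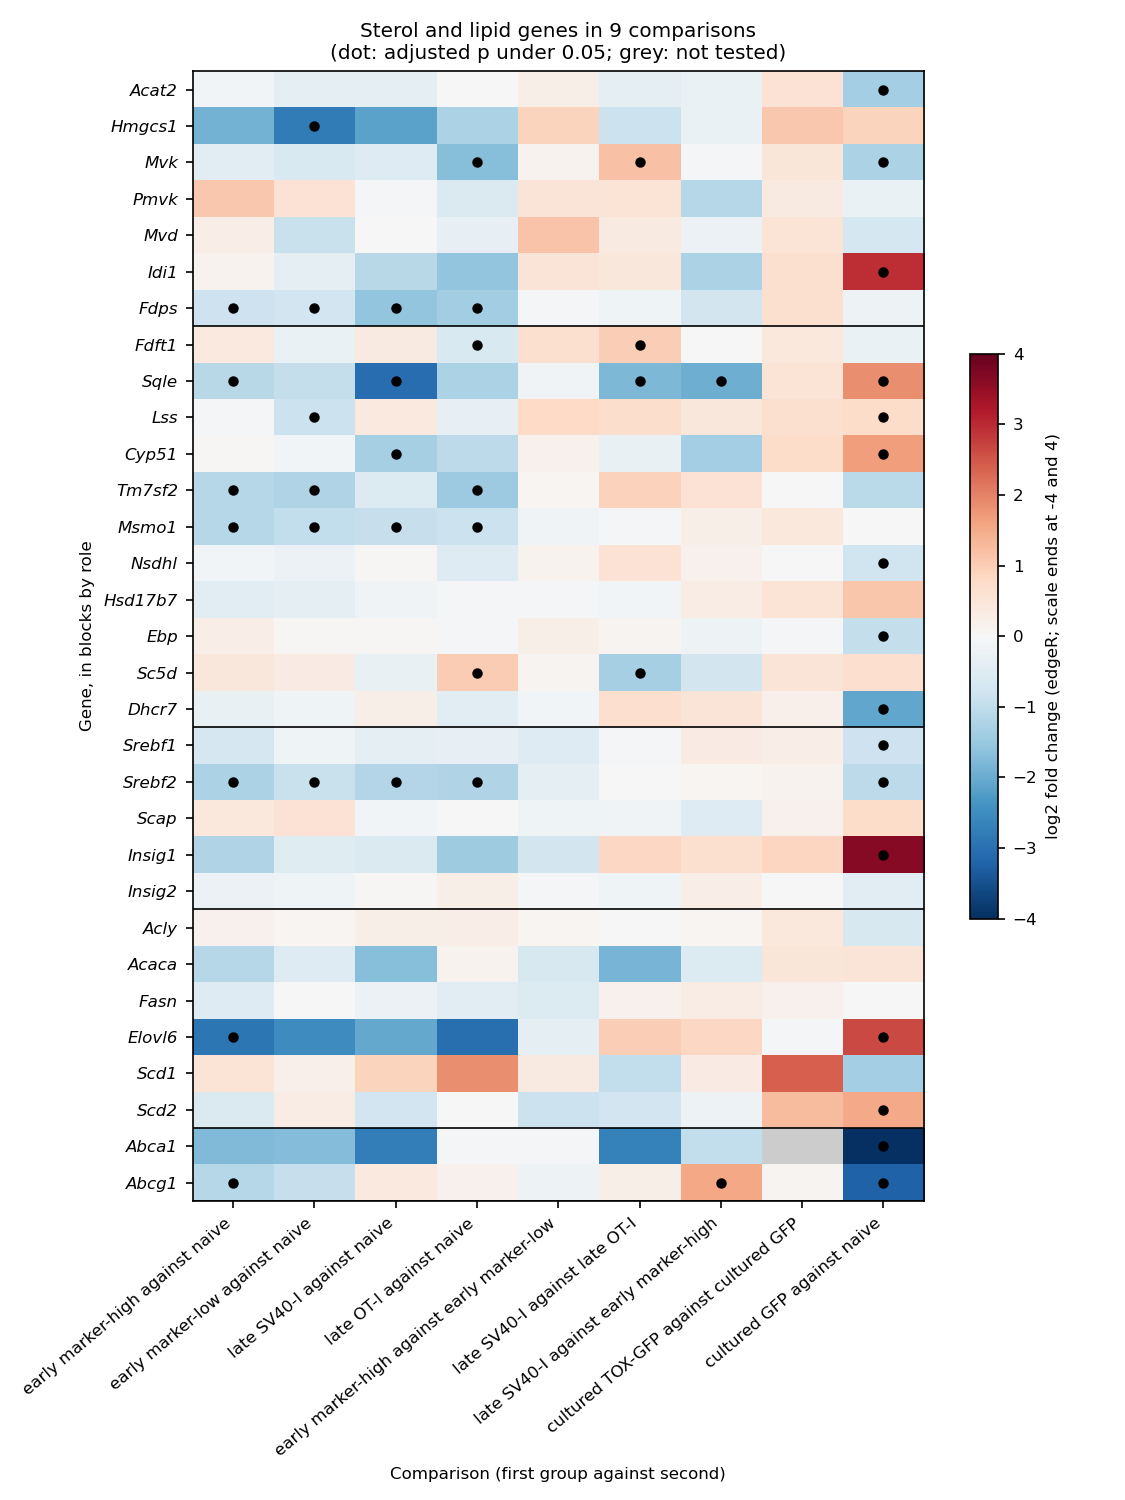
Log2 fold changes of the 31 members in 9 comparisons, first group against second, in blocks by role; red is higher and blue lower in the first group, dots mark an adjusted p under 0.05 and grey a gene not tested. Fdps, Msmo1 and Srebf2 carry dots in all 4 comparisons of tumour with naive cells, and no member carries one in the comparison of TOX-GFP with GFP.

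The late SV40-I and OT-I cells were compared to ask how tumour-specific cells differ from cells of another specificity in the same setting. Fdft1 and Mvk were higher and Sqle and Sc5d lower in SV40-I cells, 4 of 31 members, against 9.02% of all genes called (4.91% higher and 4.11% lower). The CPM of all SV40-I libraries lay above those of all OT-I libraries for 6 members and below for 6, against 14.4% and 14.7% of genes. Fdft1 (chromosome 14, 63145150 to 63179578, minus strand), the first committed enzyme of sterol synthesis, stood at 74.6, 73.4 and 70.0 CPM in SV40-I and 35.9, 41.0 and 37.5 in OT-I libraries, a log2 difference of 1.00 ± 0.16 (adjusted p = 0.00136, edgeR). Sc5d stood at 15, 22.7 and 19.6 CPM in SV40-I and 44.0, 52.1 and 53.7 in OT-I libraries, a difference of -1.33 ± 0.27 (adjusted p = 0.00674). The groups lay apart for both, and for Sqle at -1.80 ± 0.37 (0.00831) and Mvk at 1.17 ± 0.26 (0.0119). All 4 calls were lost without the 3 libraries rich in hepatocyte RNA, which leaves 2 SV40-I libraries and 1 OT-I library, and the Mvk call also without OT-I library 1 or SV40-I library 3 and in a fit of the 2 groups alone. Without those 3 libraries the log2 differences were 0.98 for Fdft1, -1.38 for Sc5d, -2.31 for Sqle and 1.502 for Mvk. The sum of 4 erythroid markers was 88.2 to 721 CPM in SV40-I and 1170 to 3240 in OT-I libraries, and that of the CD8 markers 20900 to 23100 against 10200 to 11100, with Cd8a, Cd3e and Trac called higher in SV40-I cells. The part of these cells in the values was not tested. Srebf2 differed by 0.01 ± 0.22 and Msmo1 by -0.06 ± 0.19 between these groups.

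Between late SV40-I and early marker-high cells, Abcg1 was higher and Sqle lower in the late cells, 2 of 31 members against 5.33% of all genes called (1.76% higher and 3.57% lower). Late libraries lay above all early ones for 3 members and below for 7, against 11.3% and 16% of genes. The log2 differences were 1.54 ± 0.37 for Abcg1 (adjusted p = 0.0324, edgeR) and -1.95 ± 0.37 for Sqle (0.01). The Sqle call was lost without marker-high library 2 or SV40-I library 3, and the Abcg1 call without any library except marker-high library 3. Cyp51, next by p, stood at 13.1, 21.2 and 24.1 CPM in late and 53.8, 70.1 and 31.3 in early libraries (log2 difference -1.36 ± 0.39, adjusted p = 0.0636), and the groups did not overlap. The macrophage sum of 3991 to 5775 CPM in marker-high libraries was 54.04 to 1060 CPM in late ones. With it as a covariate 0 members were called, against 0.945% of all genes. The log2 differences were then -1.61 for Sqle (adjusted p = 0.151, edgeR) and 1.74 for Abcg1 (0.121). The sums of the 2 groups do not overlap, so macrophage RNA and group cannot be told apart in that fit. The Sqle and Abcg1 calls were also lost in a fit of the 2 groups alone (2.37% of all genes called) and without the 3 libraries rich in hepatocyte RNA (1.48%).

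Early marker-high and marker-low cells were compared to ask what goes with the surface markers at days 8 to 9. No member was called by edgeR, against 1.19% of all genes (0.475% higher and 0.719% lower). An unadjusted p under 0.05 was found for 4 of 31, against 11.3% of genes, and 3 of these were higher, against 5.6%. DESeq2 called 3 of 31, all higher, against 4.62% of genes either way and 2.09% higher. The smallest p was that of Fdft1, at 74.0, 76.5 and 77.0 CPM in the marker-high group and 48.2, 41.7 and 52.1 in the marker-low group (log2 difference 0.65 ± 0.16, adjusted p = 0.0661, edgeR). Mvd, the diphosphomevalonate decarboxylase, stood at 65.3, 68.9 and 68.0 against 25.2, 44.9 and 19.4 CPM (1.15 ± 0.31, adjusted p = 0.108). Lss stood at 47.5, 41.7 and 48.0 against 21.8, 30.3 and 26.1 CPM (0.79 ± 0.23, adjusted p = 0.143). Marker-high libraries were above all marker-low ones for these 3 and below for 3 other members, against 9.35% and 6.93% of genes. The members' median log2 difference was -0.03, against 0 over all genes.

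Cultured cells with GFP alone were set beside naive cells, from which they were grown, as the activated reference for the TOX culture. In the fit of all 19 libraries, 7 members rose and 9 fell, against 17.6% of all 18608 genes called higher and 15% lower, 32.6% in all. GFP libraries lay above all naive ones for 13 members and below for 11, against 38.7% and 21.1% of genes. The scaling moves this split: TMM shifts the cultured libraries by 0.38 on the log2 scale relative to library totals, and with totals alone 10 members rose and 5 fell, against 21.9% of all genes called higher and 10.6% lower. The members that rose were Idi1, Sqle, Lss and Cyp51 of sterol synthesis, the feedback gene Insig1, and Elovl6 and Scd2. Those that fell were Acat2, Mvk, Nsdhl, Ebp and Dhcr7, the regulators Srebf1 and Srebf2, and the transporters Abca1 and Abcg1. The members' median was -0.27, against 0 over all genes. Leaving out a GFP library leaves 1 in that group, so calls from those fits are not given. The calls of Lss, Ebp, Elovl6, Srebf1 and Abca1 were lost without naive library 2. Those of Lss and Abca1 were lost without naive library 1, and those of Srebf1 and Abca1 without naive library 3. With the hepatocyte sum as a covariate the calls of Lss and Abca1 were lost. The calls of Nsdhl, Ebp, Srebf1 and Abca1 were lost with library totals.

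Insig1 rose most. It stood at 27.8 and 33.5 CPM in the GFP libraries against 1.34, 2.04 and 2.36 in naive ones, a log2 fold change of 3.63 ± 0.65 (adjusted p = 0.000545, edgeR). Sqle stood at 200 and 201 CPM and rose by 1.87 ± 0.34 (0.00061), Idi1 at 11.1 and 13.2 CPM and rose by 2.94 ± 0.73 (0.00554), and Scd2 at 351 and 267 CPM and rose by 1.51 ± 0.37 (0.00497). These 4 calls, with those of Acat2, Cyp51, Dhcr7 and Abcg1, were the only ones that held in each of 13 alternatives. Some of these alternatives leave 1 GFP library. Hmgcs1 was at 116 and 117 CPM, above all naive libraries, but with a log2 fold change of 0.88 ± 0.69 it was not called (adjusted p = 0.355). Fasn, at 392 and 216 CPM, had a log2 fold change of 0.01 ± 0.33 and Scd1, at 2.35 and 1.77 CPM, one of -1.37 ± 1.25, and neither was called.

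Dhcr7 (chromosome 7, 143823145 to 143848410), the reductase of the last step to cholesterol, had the smallest p of the members and moved the other way. It stood at 44.2 and 28.9 CPM in GFP against 104, 92.9 and 159 in naive libraries, a fall of 2.07 ± 0.25 on the log2 scale (adjusted p = 1.72e-05, edgeR). Abcg1 stood at 13.4 and 14.1 CPM and fell by 3.25 ± 0.44 (5.25e-05), with no overlap. Abca1 had 0 and 16 counts, or 0 and 0.349 CPM, against 6.67 to 10.0 CPM in naive libraries; it was called lower (adjusted p = 0.0403), and its fitted fold depends on the prior count. Srebf2 stood at 457 and 333 CPM and fell by 1.05 ± 0.24 (0.00378). Srebf1 stood at 194 and 128 CPM and fell by 0.82 ± 0.28 (0.0356). Culture and sorting from mice differ together here, so activation, culture and transduction cannot be told apart.

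The TOX-GFP and GFP cultures asked what forced TOX does to activated cells. Of 31 members 30 passed the filter on low counts (Abca1, with 0 and 10 counts in TOX-GFP libraries, did not). EdgeR called 0 of 30, and 0% of all 14614 genes, with a smallest adjusted p of 0.207 over all genes. At an unadjusted p under 0.05 there were 15 of 30 members, all higher with TOX-GFP, against 13% of genes either way (1906 genes) and 8.32% higher. Both TOX-GFP libraries lay above both GFP libraries for 19 of 30, against 24.3% of genes, and below for 0, against 23%. The log2 fold change was above 0 for 27 of 30, against 50.8% of genes, with a median of 0.45 against 0.01. DESeq2 called 8 members higher, against 3.3% of genes higher and 4.15% in all: Acat2, Hmgcs1, Sqle, Lss, Cyp51, Insig1, Scd1 and Scd2.

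Hmgcs1 had the smallest p of the members. It stood at 244 and 253 CPM with TOX-GFP against 116 and 117 with GFP, a log2 fold change of 1.09 ± 0.10 (95% interval 0.84 to 1.34; adjusted p = 0.207, edgeR). Scd2 stood at 715 and 786 against 351 and 267 CPM (1.28 ± 0.16, interval 0.88 to 1.67), and Scd1 at 8.61 and 13.1 against 2.35 and 1.77 CPM (2.40 ± 0.33, interval 1.59 to 3.21), each with the same adjusted p of 0.207. For all 3 the TOX-GFP libraries lay clear of the GFP ones. Hepatocyte markers were under 1 CPM in all 4 cultured libraries. Reads of Scd1 and Scd2 may be split between these homologous neighbours.

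The other synthesis enzymes had positive fold changes with few exceptions and no call by edgeR. Of the 7 mevalonate enzymes 7 had a positive log2 fold change (median 0.58), and of the 11 later enzymes 10 did (median 0.43). Idi1 stood at 18.7 and 19.6 against 11.1 and 13.2 CPM (0.65 ± 0.19), Sqle at 293 and 292 against 200 and 201 (0.54 ± 0.10), and Insig1 at 52.5 and 58.6 against 27.8 and 33.5 (0.86 ± 0.16). The values of the regulators Srebf2 and Srebf1 overlapped between the cultures, with Srebf2 at 441 and 423 against 457 and 333 CPM (0.13 ± 0.17, interval -0.29 to 0.54) and Srebf1 at 189 and 202 against 194 and 128 (0.28 ± 0.21). Fasn at 367 and 324 against 392 and 216 CPM (0.18 ± 0.28) and Abcg1 at 13.3 and 16.5 against 13.4 and 14.1 (0.12 ± 0.20) overlapped too. Leaving out either GFP library leaves 1 library in that group, which is then assumed to vary like the others, so calls from those fits are not given.

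**Figure D5:**
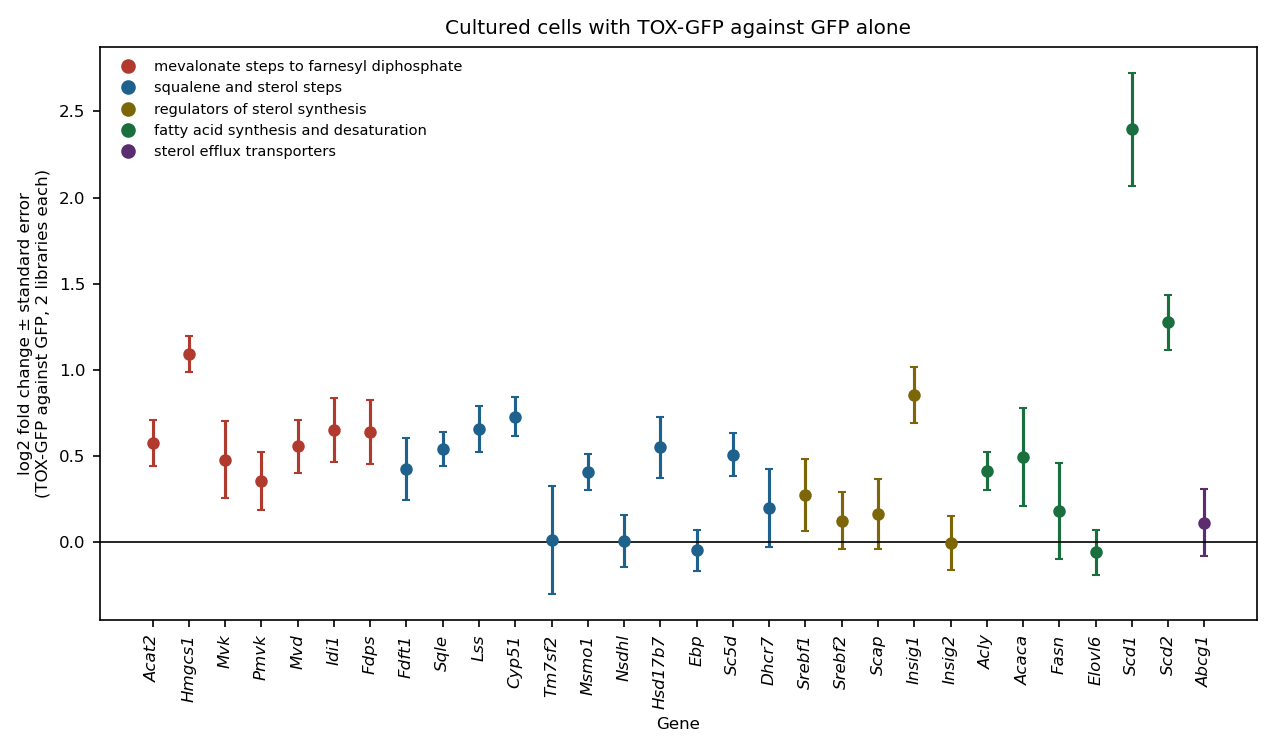
Log2 fold change of 30 members, TOX-GFP against GFP, 2 libraries each, with standard errors and coloured by role. Most points lie above 0, with Scd1 at 2.40, Scd2 at 1.28 and Hmgcs1 at 1.09, and Tm7sf2, Nsdhl, Ebp, Insig2 and Elovl6 lie near 0.

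Of the 16 cell cycle genes, 16 had a positive log2 fold change, in this culture, with a median of 0.61 and 0 called, and their sum was 5588 and 5517 CPM with TOX-GFP against 4251 and 3912 with GFP. The 5 CD8 markers summed to 4492 and 4423 CPM against 6149 and 6389. Their part in the values of the sterol genes was not tested.

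Other genes of the pathway, on a list of 16 that holds no member, were read beside the members. In tumour against naive cells, 2 rose and 2 fell in marker-high, 2 rose and 1 fell in marker-low, 1 rose and 4 fell in late SV40-I and 0 rose and 1 fell in late OT-I cells, of 15 tested each. Over all genes, 14.3%, 10.6%, 11.1% and 5.06% were called higher in these comparisons in turn. Called lower were 9.1%, 6.21%, 6.86% and 2.29%. Acss2, which makes acetyl-CoA from acetate, fell by 3.35 ± 0.46 in marker-high, 1.68 ± 0.43 in marker-low and 2.34 ± 0.44 in late SV40-I cells (adjusted p = 0.000249, 0.0189 and 0.0025, edgeR). Tmem97, a sterol-binding membrane protein, rose in both early groups, by 1.84 ± 0.39 with high markers and by 1.65 ± 0.38 with low ones (adjusted p = 0.00485 and 0.0121). Late SV40-I cells held less Acss2 than late OT-I cells, 15.2 ± 6.19 against 109 ± 40.4 CPM (SD, n = 3 each; log2 difference -2.77 ± 0.45, adjusted p = 0.0017).

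In cultured GFP against naive cells 5 of the 16 rose and 3 fell, against 17.6% of all genes called higher and 15% lower. Acsl3 and Fads2 were among the higher and Mbtps1 and Acss2 among the lower. With TOX-GFP 0 of 16 were called and 12 had a positive log2 fold change (median 0.45), against 0% and 50.8% of all genes. Of 7 LXR receptors, targets and esterification genes, 4 fell in cultured GFP against naive cells and 0 rose. In marker-high cells 3 rose and 1 fell, with Apoe and Nr1h3, which macrophages also express, among the former, beside the macrophage sum of 3991 to 5775 CPM. Of 12 fatty acid oxidation genes, 6 fell and 1 rose (Acadl, by 3.94 ± 0.46) in cultured GFP against naive cells. At most 4 were called in any other comparison, in marker-low against naive cells, where 16.8% of all genes were. The counts of both lists stand beside the shares of 17.6% higher and 15% lower for cultured GFP against naive cells. In marker-high against naive cells 14.3% of all genes were called higher and 9.1% lower.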

How the data were processed

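The authors deposited 1 table of raw read counts per library, made with featureCounts 1.6.2 on paired reads, counted by gene name without a strand option against GENCODE M17 on GRCm38.p6, per the file headers. Per the labels' protocols, sorted cells went into Trizol LS and libraries were made with SMART-seq V4 and Kapa kits, without molecular identifiers, and sequenced on an Illumina HiSeq. The submitters' processing notes also name FastQC, STAR and DESeq2. Groups come from the sample titles.

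Counts were tested with edgeR 4.0.16 (limma 3.58.1, R 4.3.3): filterByExpr, TMM scaling, robust quasi-likelihood fits with 1 coefficient per group, and Benjamini-Hochberg adjustment over all genes tested, called at an adjusted p under 0.05. Ex vivo comparisons used all 15 ex vivo libraries, TOX-GFP against GFP the 4 cultured ones, and GFP against naive all 19. Levels are CPM, counts scaled to the library total. Intervals are 95% and cover the spread between libraries. Alternatives included DESeq2 1.42.0, its size factors, no filter, a CPM filter, fits of 2 groups, a replicate block, hepatocyte and macrophage covariates, library totals without TMM, and each library left out. The fits were tested on simulated data.

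The members and lists were chosen with earlier results of these data known. Values in every library were given for Hmgcs1, Sqle, Idi1, Insig1, Srebf1, Srebf2, Fasn, Scd1, Scd2, Abca1, Abcg1 and the 3 members of smallest p in each comparison; in other lists, called genes with the 2 smallest p in each direction could be named. Genes named beyond these were chosen after their values were seen. No 2 replicate libraries matched within the noise of sampling (chi-square over its degrees of freedom, 29.9 to 485). B cell, dendritic, neutrophil, endothelial, stellate and erythroid markers were also summed; neutrophil sums were at most 451.9 CPM except in early marker-high library 1 (463.5) and early marker-low library 2 (1867), and erythroid sums were at most 3243 CPM. Promoter windows came from a RefSeq table. Of the other pathway genes, 1 is counted in its list but not reported here by name.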

Additional observations from a re-analysis of the deposited data

How the results depend on the processing

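DESeq2 called more members: 11 (7 by edgeR) in marker-high, 10 (6) in marker-low and 9 (5) in late SV40-I against naive cells, 9 (4) in late SV40-I against late OT-I, 5 (2) against early marker-high, 3 (0) between the early groups and 8 (0) with TOX-GFP. It also called more of all genes, in the same order 31.5% (23.4% by edgeR), 27.5% (16.8%), 26.2% (18%), 15.4% (9.02%), 14.9% (5.33%), 4.62% (1.19%) and 4.15% (0%). With no filter the counts were 3 in marker-high and 4 in late OT-I (7 by edgeR) against naive, and 2 with TOX-GFP. Over all genes 10.6%, 3.54% and 0.025% were called there. The hepatocyte covariate gave 3, 0 and 2 in marker-high, marker-low and late OT-I cells, against 12.1%, 9.17% and 3.07% of all genes. The macrophage covariate, chosen after seeing the data, gave 3 in marker-high and 8 in late SV40-I against naive (8.69% and 17.6% of all genes). It gave 0 in late SV40-I against marker-high (0.945%), where a fit of those groups alone also gave 0 (2.37%). Without the 3 libraries over 1000 hepatocyte CPM the counts were 4 in marker-high against naive and 0 in late SV40-I against marker-high. Over all genes 16.3% and 1.48% were called there. Late OT-I is then left with 1 library, so its counts are not given. Leaving out 1 library gave 2 to 5 (marker-high), 1 to 7 (marker-low), 4 to 5 (late SV40-I) and 3 to 4 (late OT-I) against naive. The shares of all genes were 13.8% to 20.5%, 8.06% to 12.5%, 11.9% to 13.5% and 4.46% to 4.96% in turn. It gave 3 to 5 in late SV40-I against late OT-I (5.01% to 6.4%) and 0 to 5 against marker-high (1.78% to 9.56%). Between the early groups it gave 0 to 1 (0.218% to 0.915%). In the cultured comparisons such a fit can leave 1 library in a group, so those counts are not given. For GFP against naive, library totals, also added after seeing the data, gave 15, with 10 higher and 5 lower in place of 7 and 9. Over all genes 21.9% were then called higher and 10.6% lower. The replicate numbers did not pair the libraries (correlations of same-numbered deviations -0.218 to 0.273). With a replicate block the counts were 6, 5, 6 and 7 against naive in the same order, against 23.3%, 16.7%, 17.5% and 6.47% of all genes. They were 4 in late SV40-I against late OT-I (8.72%), 3 against marker-high (5.21%) and 16 for GFP against naive (31.6%). Both comparisons without calls gave 0 (0.878% of genes between the early groups and 0% with TOX-GFP). The cause of these differences was not tested. Single-gene values were followed for the 100 pairs of member and comparison with an unadjusted p under 0.05 in the main edgeR fit. Under alternatives, 1108 of their values stayed on their side of the threshold, 177 lost a call and 98 gained one. These counts include fits that leave 1 library in a group. Idi1, Insig1, Elovl6, Abca1, Acaca and Scd1 had under 1 CPM in some ex vivo libraries, and 2 libraries a group limit the TOX-GFP comparison. Whether depth limited the calls of these genes was not tested.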
